A study of Mus musculus with 6 samples.

Results

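Müller glia are the main glial cells of the retina, and one of their tasks is to keep the ions, water and acidity around neurons steady. The genes described here are 6 of the 27998 genes in the count tables, chosen by name for that role: Car2, Car14, Slc4a4, Kcnj10, Aqp4 and Atp1b2. Müller glia were cultured from dissociated mouse retinas with papain, grown in neurobasal medium with serum, N2, L-glutamine and EGF, and transfected by Lipofectamine with RNAs that act on 3 miRNA families. There were 6 single-cell libraries, each from 1 treatment: let-7 antagomiR, which blocks the let-7 family; miR-25 mimic, a synthetic copy of that miRNA; a library labelled miR-124 mimic; both of these RNAs but no miR-124 mimic, called the double combination here; a library labelled with all 3 RNAs, called triple-labelled here; and a control that received control mimic and control antagomiR. Each RNA was at 500 nM in the medium. Strain, age and sex of the mice, the time between transfection and capture and the number of animals per culture are not given in the labels used here. All libraries come from cultures that also hold other retinal cells, and with 1 library per treatment no difference below has a replicate check or a test.

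Neurons release potassium and acid when they fire, and Müller glia take up both and pass them on to the vitreous and the blood vessels. Carbonic anhydrases speed the exchange between carbon dioxide and bicarbonate; Car2 (carbonic anhydrase 2) does so in the cytosol and Car14 (carbonic anhydrase 14) at the outer cell surface. Slc4a4 encodes a sodium bicarbonate cotransporter, known as NBCe1. Kcnj10 encodes the inwardly rectifying potassium channel Kir4.1, and Aqp4 the water channel aquaporin-4; in Müller glia both gather on the endfeet, held there by the dystrophin complex. Atp1b2 encodes the beta 2 subunit of the sodium pump, the form typical of glia.

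The libraries held 11804176 to 23124374 UMIs, which count individual RNA molecules, and 2721 to 5158 cells per library were kept after filters. The count matrix of the double combination was read only in part, as 3014 of its 5141 barcodes. Pairs of libraries shared 9 to 33 cell barcodes. Of the kept cells, 1538 under let-7 antagomiR, 2990 under miR-25 mimic, 1248 in the miR-124-labelled library, 1376 with the double combination, 2252 in the triple-labelled library and 1316 in the control were Müller-like, meaning that their cluster was named from Müller glia markers. Of 20 such markers, 18 to 20 reached 20 CPM in each library's Müller-like cells. CPM is the UMIs of a gene divided by all UMIs summed, on a fixed scale that is the same for every library. The clusters were named from these same markers, so this describes the class and is no separate check of the cell type. The defining genes of microglia and photoreceptors were all under 20 CPM there, with summed levels of 12.4 to 17.8 CPM over 8 and 1.67 to 3.33 CPM over 7 genes.

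The word "labelled" is kept for 2 libraries because genes with miRNA sites in them went against part of their labels. Relative to control, genes with a miR-25 site were lower than the rest, with a fitted log2 difference of -0.11 under miR-25 mimic and -0.12 with the double combination. In the triple-labelled library, whose label names the same mimic, the difference was 0.04. Dkk3, a reported target of miR-25, had 843 CPM under miR-25 mimic and 968 CPM with the double combination. Its level was 1982 CPM in the triple-labelled library and 2255 CPM in the miR-124-labelled library. Under let-7 antagomiR it was 1728 CPM, against 1766 CPM in the control. Dkk3 is also a Müller glia marker, raised in the Rlbp1-led cluster described below, which was found mostly in the 2 labelled libraries. How far cluster make-up sets the Dkk3 level or the site differences in those libraries was not tested. Genes with a let-7 site were higher by 0.07 under let-7 antagomiR and by 0.09 with the double combination. The difference was also 0.09 in the miR-124-labelled library, whose label names no let-7 inhibitor. In the triple-labelled library, whose label does, it was 1.4e-05. These differences are for Müller-like cells and carry no interval, so how well they separate the labels is not known. Over all kept cells the let-7 differences were smaller, at 0.020 under let-7 antagomiR, 0.036 with the double combination and 0.045 in the miR-124-labelled library. There they were -0.017 in the triple-labelled library and -0.026 under miR-25 mimic. The miR-25 differences there were -0.090 under miR-25 mimic, -0.099 with the double combination and 0.026 in the triple-labelled library. Sites of miR-124 were not analysed here.

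The mature sequences below show what the RNAs of the treatments act through, and the gene stretches show the only let-7 or miR-25 seed matches in the 3′ UTRs of the 5 members searched, which were all but Aqp4. Capitals mark the seed, bases 2 to 8, of each miRNA, and the matching bases in each gene. The 8 let-7 miRNAs with an entry share 1 seed, so let-7a stands for them, and the 3p arm of miR-25 was assumed because the labels name none. Mature sequences are from RefSeq (GRCm38.p6) and sites from GENCODE vM21 (GRCm38), written 5′ to 3′.
let-7a-5p: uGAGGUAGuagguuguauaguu
miR-25-3p: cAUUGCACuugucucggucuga
Slc4a4 (chr5:89236377-89236403, plus strand): ttgagtagttCTACCTCttacctgtag
Kcnj10 (chr1:172371157-172371183, plus strand): ccattgcacaTACCTCAcgaaaatatc
The Slc4a4 match pairs with bases 2 to 8 and lies 917 bases into a 3′ UTR of 4183 bases. The Kcnj10 match pairs with bases 2 to 7 followed by an A, and lies 1107 bases into a 3′ UTR of 4025 bases. Car2, Car14 and Atp1b2, whose 3′ UTRs were 680, 378 and 1512 bases long, held neither a let-7 nor a miR-25 match. Over 20725 genes, 14.9% had a let-7 match and 12.7% a miR-25 match, with a median 3′ UTR of 964 bases. A match is a description of the letters only. The genes lie on chromosomes 1 (Kcnj10, chr1:172341210-172374085), 3 (Car2, chr3:14886269-14900770, and Car14, chr3:95897768-95905117), 5 (Slc4a4, chr5:88793858-89239656), 11 (Atp1b2, chr11:69599728-69605978) and 18 (Aqp4), on GRCm38.p6.

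The members differed most in the miR-124-labelled and triple-labelled libraries, where Car14, Atp1b2 and Kcnj10 were higher than in the control and Slc4a4 was lower. Car2 followed another order and was highest with the double combination. Aqp4 varied least of the members. Each level below is the sum over a library's Müller-like cells, and each 95% interval is exact and covers counting error only.

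**Figure D1:**
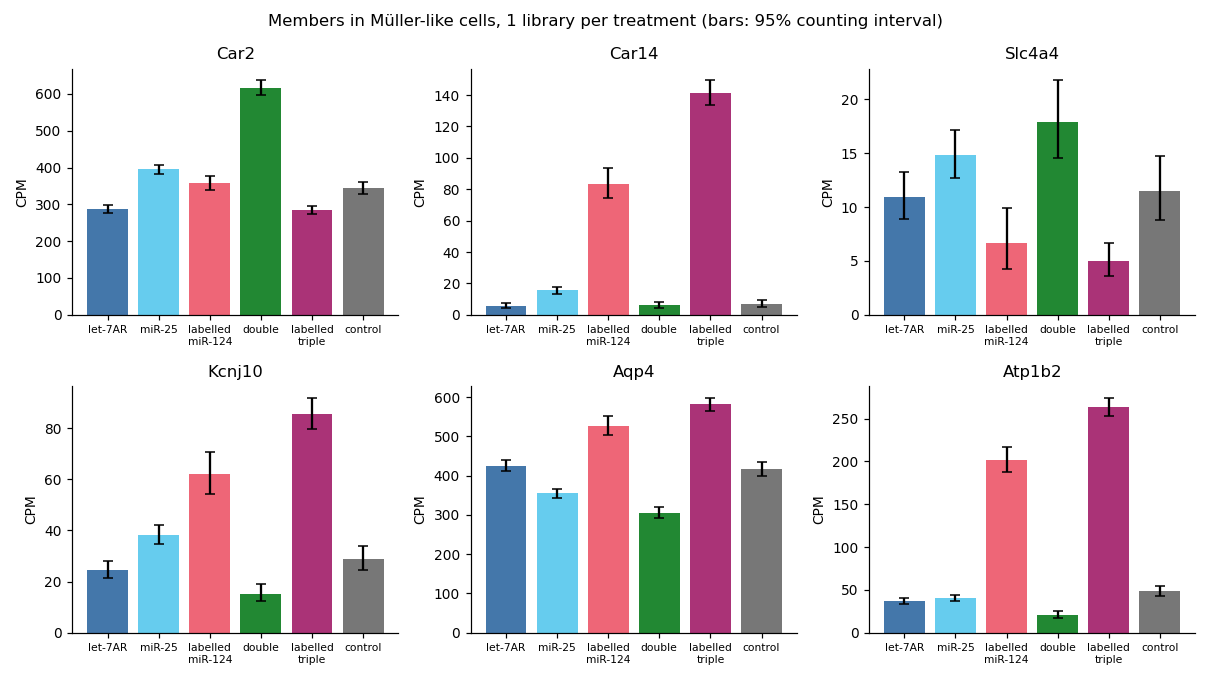
Level of each member in Müller-like cells (CPM, linear axis from 0) by library, with the control at the right; bars are single libraries and error bars are exact 95% Poisson intervals, which cover counting error only. Car14 reached 83.6 and 141 CPM in the miR-124-labelled and triple-labelled libraries, against 6.88 CPM in the control, while Car2 was highest, at 616 CPM, with the double combination.

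Car14, the surface carbonic anhydrase, had 5.90 CPM under let-7 antagomiR, 15.6 CPM under miR-25 mimic, 83.6 CPM in the miR-124-labelled library, 6.03 CPM with the double combination and 141 CPM in the triple-labelled library, against 6.88 CPM in the control. These levels rest on 53, 182, 301, 34, 1286 and 37 UMIs in the same order. The miR-124-labelled and triple-labelled libraries stood far above the other 4, and miR-25 mimic stood above the remaining 3, whose intervals overlapped. The miR-124-labelled library was 12.1-fold over the control (95% interval 8.62 to 17.6) and the triple-labelled library 20.6-fold (14.8 to 29.3). Under miR-25 mimic the ratio to control was 2.26 (1.58 to 3.31), under let-7 antagomiR 0.86 (0.55 to 1.34) and with the double combination 0.88 (0.53 to 1.44).

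Car2, the cytosolic carbonic anhydrase, had 287 CPM under let-7 antagomiR, 395 CPM under miR-25 mimic, 357 CPM in the miR-124-labelled library, 616 CPM with the double combination and 285 CPM in the triple-labelled library, against 344 CPM in the control. The double combination was the highest and stood above its nearest neighbour, miR-25 mimic, by more than the counting intervals. Its ratio to control was 1.79 (1.69 to 1.90), that of miR-25 mimic 1.15 (1.09 to 1.21) and that of let-7 antagomiR 0.83 (0.79 to 0.89). The lowest levels, under let-7 antagomiR and in the triple-labelled library, did not differ beyond counting error. The miR-124-labelled library was at 1.04 of the control (0.97 to 1.12).

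Slc4a4, the sodium bicarbonate cotransporter, was counted rarely in Müller-like cells. It had 10.9 CPM under let-7 antagomiR, 14.8 CPM under miR-25 mimic, 6.67 CPM in the miR-124-labelled library, 17.9 CPM with the double combination and 4.95 CPM in the triple-labelled library, against 11.5 CPM in the control. The double combination was at 1.55 of the control (1.12 to 2.17), the miR-124-labelled library at 0.58 (0.35 to 0.94) and the triple-labelled library at 0.43 (0.29 to 0.64). The double combination was the highest, as it was for Car2, and the triple-labelled library the lowest. No library reached 20 CPM, so Slc4a4 is left out of the counts of members past 2-fold in Müller-like cells.

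Kcnj10, the Kir4.1 potassium channel, had 24.5 CPM under let-7 antagomiR, 38.2 CPM under miR-25 mimic, 61.9 CPM in the miR-124-labelled library, 15.3 CPM with the double combination and 85.5 CPM in the triple-labelled library, against 29.0 CPM in the control. The 2 labelled libraries were again the highest, and the double combination was the lowest. The ratio to control was 2.13 (1.73 to 2.64) in the miR-124-labelled library and 2.95 (2.48 to 3.52) in the triple-labelled library. It was 1.32 (1.10 to 1.59) under miR-25 mimic and 0.53 (0.40 to 0.69) with the double combination. Under let-7 antagomiR, the agent for which this gene and Slc4a4 carry a seed match, the ratio was 0.84 (0.68 to 1.04) for Kcnj10 and 0.95 (0.68 to 1.32) for Slc4a4, both within counting error of 1.

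Aqp4, the water channel, had 426 CPM under let-7 antagomiR, 355 CPM under miR-25 mimic, 527 CPM in the miR-124-labelled library, 306 CPM with the double combination and 582 CPM in the triple-labelled library, against 416 CPM in the control. The order was that of Kcnj10 at both ends, over a much smaller range. The ratio to control was 1.27 (1.19 to 1.35) in the miR-124-labelled library, 1.40 (1.33 to 1.47) in the triple-labelled library and 0.73 (0.69 to 0.78) with the double combination. Let-7 antagomiR and the control did not differ beyond counting error.

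Atp1b2, the glial sodium pump subunit, had 36.9 CPM under let-7 antagomiR, 40.4 CPM under miR-25 mimic, 201 CPM in the miR-124-labelled library, 20.8 CPM with the double combination and 263 CPM in the triple-labelled library, against 48.5 CPM in the control. The 2 labelled libraries stood above all others and the double combination below all others. The ratio to control was 4.15 (3.60 to 4.80) in the miR-124-labelled library, 5.42 (4.76 to 6.18) in the triple-labelled library and 0.43 (0.34 to 0.53) with the double combination. The levels under let-7 antagomiR and miR-25 mimic did not differ beyond counting error.

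The triple-labelled library and the double combination differ, by their labels, in the miR-124 mimic. Set against the double combination, the triple-labelled library was 23.4-fold higher in Car14 (16.7 to 34.0), 12.7-fold in Atp1b2 (10.5 to 15.4) and 5.60-fold in Kcnj10 (4.48 to 7.08). Aqp4 was 1.90-fold higher (1.80 to 2.01). Car2 was at 0.46 (0.44 to 0.49) and Slc4a4 at 0.28 (0.19 to 0.40). This comparison shares its libraries with those against the control, and the 5 comparisons with control share the control library.

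Counted by the log2 ratio of CPM + 5, 5 of the 6 members were measured in Müller-like cells, that is, reached 20 CPM in at least 1 library; Car14 reached it only in the 2 labelled libraries and so had to differ. In the miR-124-labelled library, 2 members (Car14 and Atp1b2) were at least 2-fold higher than in the control and none was at least 2-fold lower, where 2.81% of 7123 genes were that much higher and 1.52% that much lower. Kcnj10 lay just under 2-fold on this scale, with a log2 ratio of 0.98. In the triple-labelled library, 3 members (Car14, Atp1b2 and Kcnj10) were at least 2-fold higher and none lower, beside 4.14% and 3.06% of all genes. With the double combination no member was at least 2-fold higher and 1 (Atp1b2) was lower, beside 0.702% and 0.758% of all genes. The log2 ratio of Atp1b2 there was -1.06, and it did not pass 2-fold with a stricter filter on cells (-0.93), at a higher clustering resolution (-0.63) or over all kept cells (-0.12). Under let-7 antagomiR (0.168% of genes higher, 0.0281% lower) and under miR-25 mimic (0.295% and 0.0562%) no member passed 2-fold in either direction; Car14 under miR-25 mimic, 2.26-fold by CPM alone, had a log2 ratio of 0.79. Between the triple-labelled library and the double combination, 3 members were higher and 1 (Car2) lower, beside 7.37% and 5.03% of genes. The log2 ratio of Car2 there was -1.10, and it did not pass 2-fold at a higher clustering resolution (-0.58) or by the mean of per-cell CPM (-0.99).

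**Figure D2:**
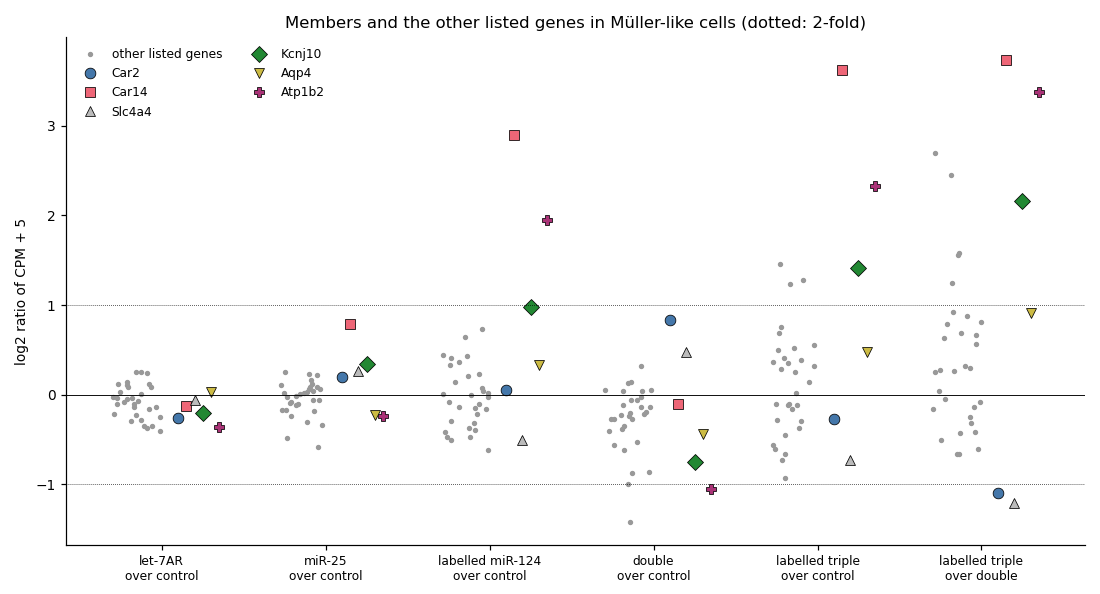
Log2 ratio of CPM + 5 in Müller-like cells for the 6 members (large symbols) and the 31 other measured ion, water and pH genes (grey points), by comparison; dotted lines mark 2-fold. Car14, Atp1b2 and Kcnj10 lie above the line in the triple-labelled library against both the control and the double combination, while most grey points lie between the lines.

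Of 103 other genes of ion, water and pH handling, 31 were measured in Müller-like cells, and most of them stayed within 2-fold. None of the 8 other water channels was measured, so Aqp4 was alone in its group. In the triple-labelled library, 3 of the 31 were at least 2-fold higher than in the control and none lower, with a median log2 ratio of 0.14, against 0.05 over all genes. Among these were Mlc1, a membrane protein that works with chloride channels in glial volume control, at 345 CPM in the triple-labelled library and 123 CPM in the control, and Fxyd1, which binds and regulates the sodium pump, at 341 CPM in the triple-labelled library and 137 CPM in the control. The lowest in the triple-labelled library were Slc4a7, at 73.4 CPM against 145 CPM in the control (log2 ratio -0.93), and Utrn, at 71.8 CPM against 122 CPM (-0.72). In the miR-124-labelled library none of the 31 passed 2-fold, with a median of -0.03 beside 0.05 over all genes. The highest there were Mlc1 at 207 CPM and the chloride transporter Clcn3 at 255 CPM, against 123 and 162 CPM in the control. The lowest there were the potassium channel Kcnk1, at 131 CPM against 204 CPM in the control, and the bicarbonate cotransporter Slc4a7, at 101 CPM against 145 CPM in the control.

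With the double combination 1 of the 31 genes, Fxyd1, was at least 2-fold lower, at 48.3 CPM against 137 CPM in the control. Mlc1 was just under 2-fold lower on the scale of CPM + 5, at 58.9 CPM against 123 CPM in the control, and the median over the 31 was -0.21, against -0.01 over all genes. The highest were the sarcoglycan Sgce, at 49.5 CPM against 38.7 CPM in the control, and Bsg, a partner of lactate transporters, at 1291 CPM against 1173 CPM in the control. Under let-7 antagomiR and miR-25 mimic none of the 31 passed 2-fold, with medians of -0.07 and -0.01. The lowest under let-7 antagomiR were Mlc1, at 91.2 CPM against 123 CPM in the control, and Lrrc8c, a volume-regulated anion channel subunit, at 29.2 CPM against 39.1 CPM in the control. Dtna, of the dystrophin complex, was the highest there with 177 CPM, against 148 CPM in the control, followed by Sntb1, another member of that complex, at 13.6 CPM against 10.6 CPM in the control. Under miR-25 mimic the lowest were Lrrc8b, a subunit of the same anion channel, at 28.4 CPM against 45.2 CPM in the control, and Slc4a7, at 102 CPM against 145 CPM in the control. Sgce and the carbonic anhydrase relative Car11 were the highest there, at 47.1 and 15.1 CPM under miR-25 mimic, against 38.7 and 12.1 CPM in the control.

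Between the triple-labelled library and the double combination, 5 of the 31 genes were at least 2-fold higher and none lower, with a median of 0.28 beside 0.07 over all genes. Fxyd1 and Mlc1 led, at 341 and 345 CPM in the triple-labelled library, against 48.3 and 58.9 CPM with the double combination. The lowest were Slc4a7, at 73.4 CPM against 119 CPM with the double combination, and the dystrophin relative Utrn, at 71.8 CPM against 117 CPM.

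Other genes of Müller glia, outside ion handling, also differed in the same libraries. Rlbp1, a retinoid-binding protein of Müller glia, had 410 CPM in the miR-124-labelled library and 567 CPM in the triple-labelled library, against 89.5 CPM in the control. Glul, glutamine synthetase, had 319 and 785 CPM in those libraries, against 99.1 CPM in the control. Marker lists of other cell types also differed in the Müller-like cells of the 2 labelled libraries. The 8 astrocyte markers summed to 930 CPM in the miR-124-labelled library and 1590.2 CPM in the triple-labelled library, against 336 to 420 CPM in the other 4 libraries, with 6 markers at 20 CPM or more in each of the 2 and 4 or 5 in the others. Gfap made up 463 and 1101 CPM of those sums, and S100b 34.2 and 43.1 CPM, against 8.18 to 11.2 CPM of S100b in the other 4. Pax2, which defines retinal astrocytes, was at 0.56 and 0.33 CPM in the 2 labelled libraries. The 10 neurogenic progenitor markers summed to 338 and 404 CPM, against 58.0 to 114 CPM in the other 4, and the 7 pericyte or smooth muscle markers to 2060.4 and 1189 CPM, against 3676 to 6158 CPM. The 6 endothelial markers summed to 801 and 1061 CPM, against 313 to 474 CPM in the other 4, with Cdh5, Cldn5 and Tie1 at 0 in all 6 libraries. The 7 neuron markers summed to 534 and 422 CPM, against 557 to 833 CPM in the other 4. The median depth of the Müller-like cells was 2653.5 UMIs in the miR-124-labelled library and 3694 to 5619.5 UMIs in the other 5, and the median mitochondrial share was 5.90% to 7.50%. Their part in the members' levels was not tested.

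Müller-like cells fell into 3 clusters, made without the members or the 103 listed genes and called here by their leading gene. The Lcn2-led cluster held 17.3% to 68.7% of a library's Müller-like cells and the Grem1-led cluster 4.71% to 63.6%. The Rlbp1-led cluster held 54.7% of them in the miR-124-labelled library and 78.0% in the triple-labelled library, against 0.145% to 0.988% in the other 4. A cluster mostly of 2 libraries may be those libraries and not a cell state. The make-up of the class thus differed between libraries, so the members are also given by cluster.

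**Figure D3:**
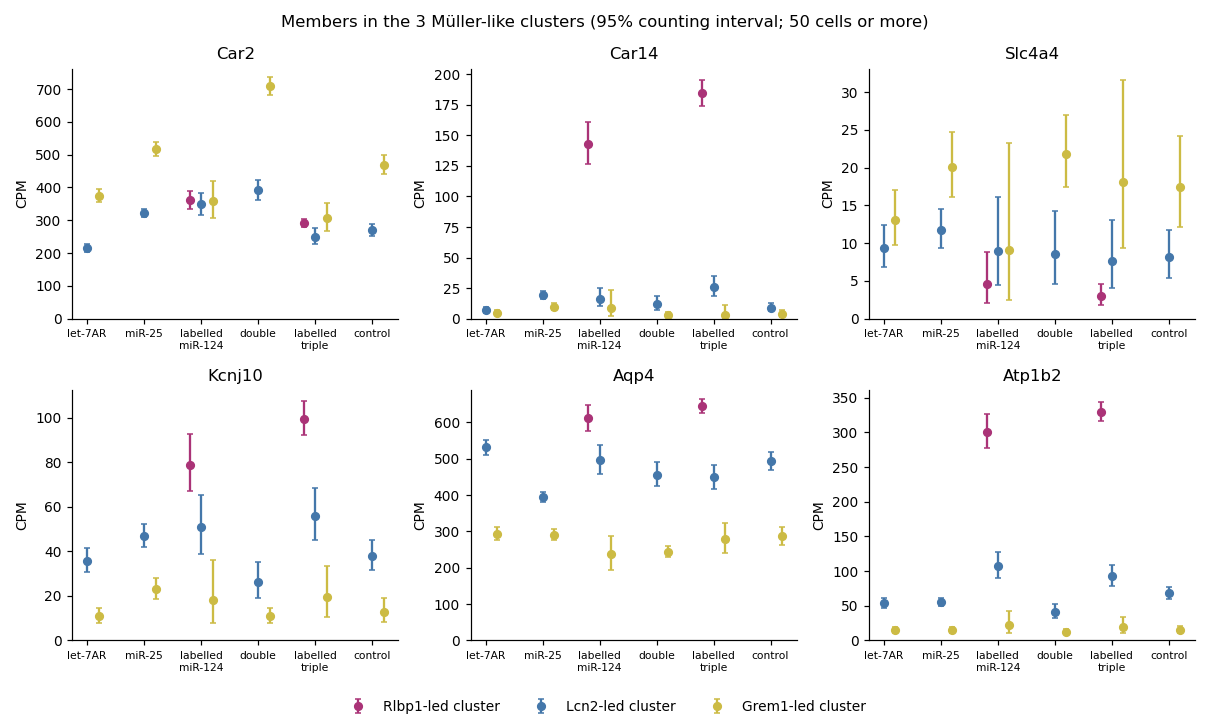
Level of each member (CPM, linear axis from 0) in the 3 Müller-like clusters by library, with the control at the right; points are summed cells of 1 library with exact 95% Poisson intervals, shown where a cluster held at least 50 cells. Car14 and Atp1b2 are highest in the Rlbp1-led cluster, which is shown for the 2 labelled libraries, and Car2 and Slc4a4 are mostly highest in the Grem1-led cluster.

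In the Rlbp1-led cluster, Car14 had 143 CPM in the miR-124-labelled library and 184 CPM in the triple-labelled library. The Lcn2-led cluster of the same libraries had 16.4 and 25.9 CPM, so the Rlbp1-led cluster was 8.73-fold higher (5.54 to 14.5) and 7.13-fold higher (5.28 to 9.86). For Atp1b2 the ratios of the same clusters were 2.81 (2.32 to 3.42) and 3.55 (3.02 to 4.20), and for Kcnj10 1.55 (1.15 to 2.12) and 1.78 (1.44 to 2.23). Aqp4 was 1.23-fold (1.11 to 1.36) and 1.44-fold (1.33 to 1.56) higher, and Car2 was at 1.03 (0.92 to 1.17) and 1.16 (1.05 to 1.29). Slc4a4 was lower, at 0.52 (0.19 to 1.37) and 0.39 (0.18 to 0.85), on few UMIs.

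In the control, 4 members were lower and 2 higher in the Grem1-led than in the Lcn2-led cluster. Atp1b2 in the Grem1-led cluster was at 0.22 of the Lcn2-led cluster (0.14 to 0.32), Kcnj10 at 0.34 (0.21 to 0.52), Car14 at 0.39 (0.14 to 0.90) and Aqp4 at 0.58 (0.53 to 0.64). Car2 was 1.74-fold higher there (1.59 to 1.91) and Slc4a4 2.15-fold higher (1.26 to 3.69). With the double combination, where the Grem1-led cluster held 63.6% of Müller-like cells, these ratios were 0.30 for Atp1b2 (0.20 to 0.44), 0.41 for Kcnj10 (0.26 to 0.65), 0.53 for Aqp4 (0.48 to 0.59) and 1.81 for Car2 (1.66 to 1.98). Car14 was at 0.27 there (0.12 to 0.57) and Slc4a4 at 2.57 (1.45 to 4.90). Atp1b2, Kcnj10, Car14 and Aqp4 were thus lower, and Car2 and Slc4a4 higher, in the cluster that held the larger share of the cells with the double combination. Over the whole class, though, Car14 with the double combination was at 0.88 of the control (0.53 to 1.44).

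Within the Lcn2-led cluster, which all 6 libraries shared, the differences of Car14, Atp1b2 and Kcnj10 from control in the 2 labelled libraries were smaller than over the whole class. Car14 was 1.82-fold higher in the miR-124-labelled library (0.98 to 3.31) and 2.87-fold higher in the triple-labelled library (1.76 to 4.73). Atp1b2 was 1.57-fold (1.26 to 1.96) and 1.36-fold (1.10 to 1.68) higher, and Kcnj10 1.34-fold (0.97 to 1.83) and 1.48-fold (1.12 to 1.94). Both labelled libraries lay above the control for these members, with intervals that include 1 for Car14 and Kcnj10 in the miR-124-labelled library, and the differences of Car14 were far below the 12.1-fold and 20.6-fold over the whole class. Aqp4 was at 1.01 (0.92 to 1.11) in the miR-124-labelled library and 0.91 (0.83 to 0.99) in the triple-labelled library, where over the whole class both were above the control. Slc4a4 was at 1.11 of the control (0.50 to 2.31) in the miR-124-labelled library and 0.94 (0.45 to 1.89) in the triple-labelled library, where over the whole class it was at 0.58 and 0.43. In the Grem1-led cluster it was at 0.52 (0.13 to 1.46) and 1.04 (0.49 to 2.05), and all 4 of these intervals include 1, on 4 to 13 UMIs per labelled library. With the double combination Atp1b2 was at 0.61 of the control (0.45 to 0.80) and Kcnj10 at 0.69 (0.48 to 0.98), while Aqp4 was at 0.92 (0.85 to 1.01).

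The difference of Car2 with the double combination was present within both shared clusters. Its level in the Lcn2-led cluster was 391 CPM with the double combination, against 269 CPM in the control, a ratio of 1.45 (1.31 to 1.61). In the Grem1-led cluster it was 709 CPM with the double combination, against 469 CPM in the control, a ratio of 1.51 (1.40 to 1.63). The miR-124-labelled library differed between the clusters, with a Car2 ratio to control of 1.30 (1.15 to 1.46) in the Lcn2-led and 0.77 (0.64 to 0.91) in the Grem1-led cluster. Car14 under miR-25 mimic was above the control in both, by 2.12-fold (1.42 to 3.26) and 2.68-fold (1.19 to 7.09).

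Müller-like cells held 46.6% of all kept cells and 40.6% of their UMIs. They held 91.9% of the Car2 UMIs, 90.7% of those of Aqp4, 90.6% of those of Kcnj10, 86.7% of those of Car14 and 80.3% of those of Atp1b2. Slc4a4 was the exception, with 27.1% of its UMIs in Müller-like cells, 43.9% in fibroblast- or mesenchymal-like cells and 22.7% in astrocyte-like cells, which were 6.67% of the cells.

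**Figure D4:**
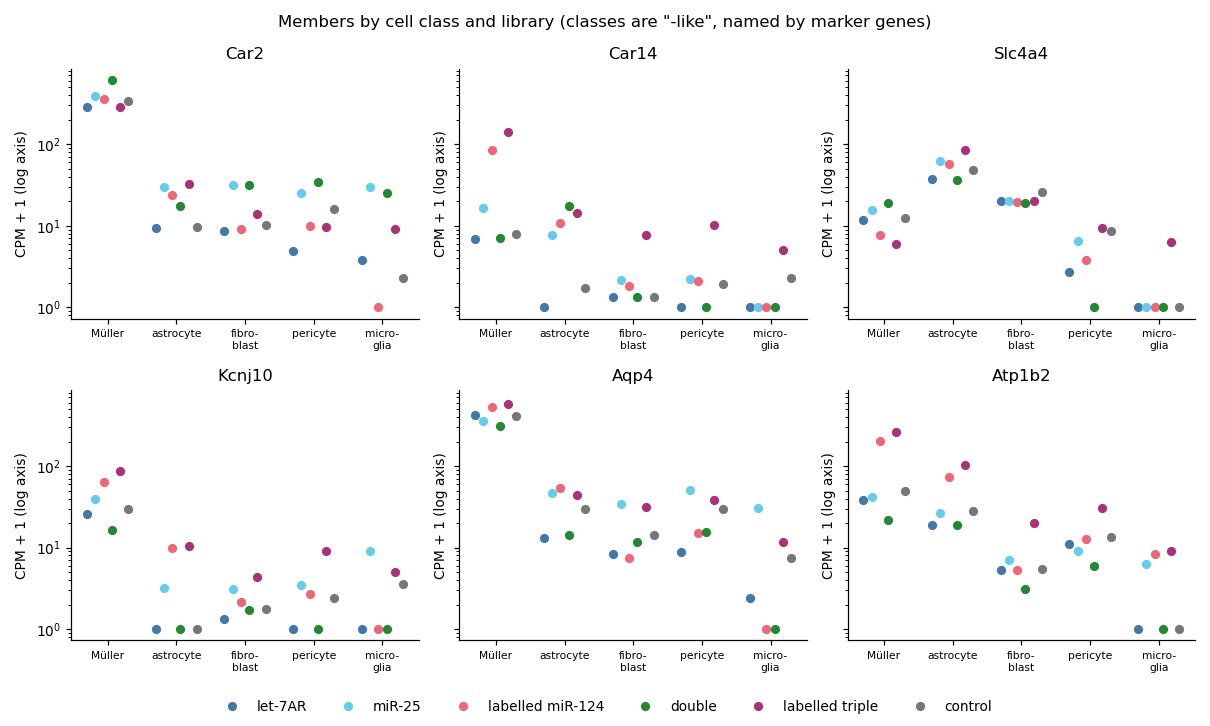
Level of each member (CPM + 1, log axis) by cell class and library; each point is the summed cells of 1 class in 1 library, with the control the last point of each group. Of the 5 classes shown, Müller-like cells have the highest level of Car2, Kcnj10, Aqp4 and Atp1b2 in all 6 libraries and of Car14 in all but the double combination, while Slc4a4 is highest in astrocyte-like cells, at 35.7 to 85.1 CPM.

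In astrocyte-like cells Slc4a4 had 36.3 CPM under let-7 antagomiR, 62.2 CPM under miR-25 mimic, 56.5 CPM in the miR-124-labelled library, 35.7 CPM with the double combination and 85.1 CPM in the triple-labelled library, against 47.7 CPM in the control. The triple-labelled library was the highest, at 1.78 of the control (1.33 to 2.42), where in Müller-like cells it was the lowest. Car14 with the double combination was 16.6 CPM in astrocyte-like cells, on 14 UMIs, and 6.03 CPM in Müller-like cells. In fibroblast- or mesenchymal-like cells Slc4a4 lay between 18.3 and 19.4 CPM in the 5 treated libraries, against 25.0 CPM in the control. Atp1b2 in astrocyte-like cells had 72.4 CPM in the miR-124-labelled library and 101 CPM in the triple-labelled library, against 26.7 CPM in the control, ratios of 2.71 (1.80 to 4.14) and 3.79 (2.65 to 5.57). The same 2 libraries were thus the highest for Atp1b2 in both glial classes. An unnamed cluster led by Pcp4, a neuronal gene, had 31.0 CPM of Atp1b2 under let-7 antagomiR, 38.6 CPM under miR-25 mimic, 138 CPM in the miR-124-labelled library, 94.8 CPM with the double combination and 138 CPM in the triple-labelled library, with too few cells in the control. In microglia- or macrophage-like cells Atp1b2 was at 7.22 and 8.07 CPM in these libraries and had no UMI in the control. Over the 6 libraries it ranged from 2.07 to 18.9 CPM in fibroblast- or mesenchymal-like and from 4.91 to 29.7 CPM in pericyte- or smooth muscle-like cells. Neither free RNA nor doublets were tested as a part of the Atp1b2 levels outside Müller-like cells.

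The largest fibroblast- or mesenchymal-like cluster had little Car2, but the amount differed by library. It was 31.0 CPM with the double combination and 11.8 CPM under miR-25 mimic, against 3.48 CPM in the control, ratios of 8.90 (5.89 to 13.7) and 3.39 (2.16 to 5.38). In microglia- or macrophage-like cells, which are not known for Car2, the level was 24.2 CPM with the double combination and 29.4 CPM under miR-25 mimic, against 1.29 CPM in the control. Free RNA in the droplets and doublets can both give UMIs in cells that do not express a gene. Neither was tested as a part of these levels, so Car2 in these cells is not read as expression. Aqp4 in microglia- or macrophage-like cells was 29.4 CPM under miR-25 mimic and 0 to 10.8 CPM in the other 5 libraries.

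Levels were compared across 36 sums of 1 class or unnamed cluster in 1 library with at least 50 cells, which share libraries and depth. Across them 5 members followed each other and Slc4a4 did not. The sums span Müller-like and other classes, so r includes differences between classes and does not describe treatments alone. Among Müller-like sums, Car2 was highest with the double combination (616 CPM) and lowest in the triple-labelled library (285 CPM). Aqp4 was lowest (306 CPM) and highest (582 CPM) in those same libraries. Over all 36 sums, Pearson's r of log2(CPM + 5) between the 5 ranged between 0.65, for Car14 and Car2, and 0.92, for Aqp4 and Car2. For Slc4a4 with the others it ranged from 0.03 to 0.31. The 3 genes most like Car2 over these sums were Rab11fip4, Sbspon and Dapl1 (r from 0.96 to 0.95), and those most like Car14 were Ralgps1, Reep6 and Dgkb (0.92 to 0.91). Kcnj10 was most like Hkdc1, Slc6a11 and Folh1 (0.95 to 0.94), Aqp4 most like Il33, Gpr37 and Mfap3l (0.98 to 0.97) and Atp1b2 most like Ppp1r1a, Cntn1 and Ttyh1 (0.94 to 0.93). Slc4a4 was most like Gja1, Pdpn and Plscr2 (0.90 to 0.89).

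The share of Müller-like cells with a UMI of a member was compared after each cell had been thinned to 2000 UMIs, which left out 36 to 186 shallower cells per library. For Car14 the share was 1.20% under let-7 antagomiR, 2.78% under miR-25 mimic, 14.3% in the miR-124-labelled library, 1.23% with the double combination and 23.0% in the triple-labelled library, against 1.43% in the control. For Atp1b2 it was 6.66%, 8.42%, 29.3%, 3.52% and 38.5% in the same order of treatments, against 9.31% in the control. In microglia- or macrophage-like cells, at median depths of 4156 to 7422 UMIs before thinning against 2796 to 5665 UMIs in Müller-like cells, the Car14 share was 0% to 1.03% and the Atp1b2 share 0% to 2.06%. A share of 0% there allows up to 2.56% in the control and 4.92% with the double combination, since few such cells were present. This background is thus too small to show whether the low Car14 shares, in all but the 2 labelled libraries, lie above it. The same holds for the Atp1b2 share with the double combination. Summed without thinning over these microglia- or macrophage-like cells, Car14 was 0 to 4.03 CPM, on 4 UMIs over the 6 libraries. Atp1b2 was 0 to 8.07 CPM there, on 11 UMIs. In Müller-like cells the lowest levels were 5.90 CPM of Car14 and 20.8 CPM of Atp1b2.

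**Figure D5:**
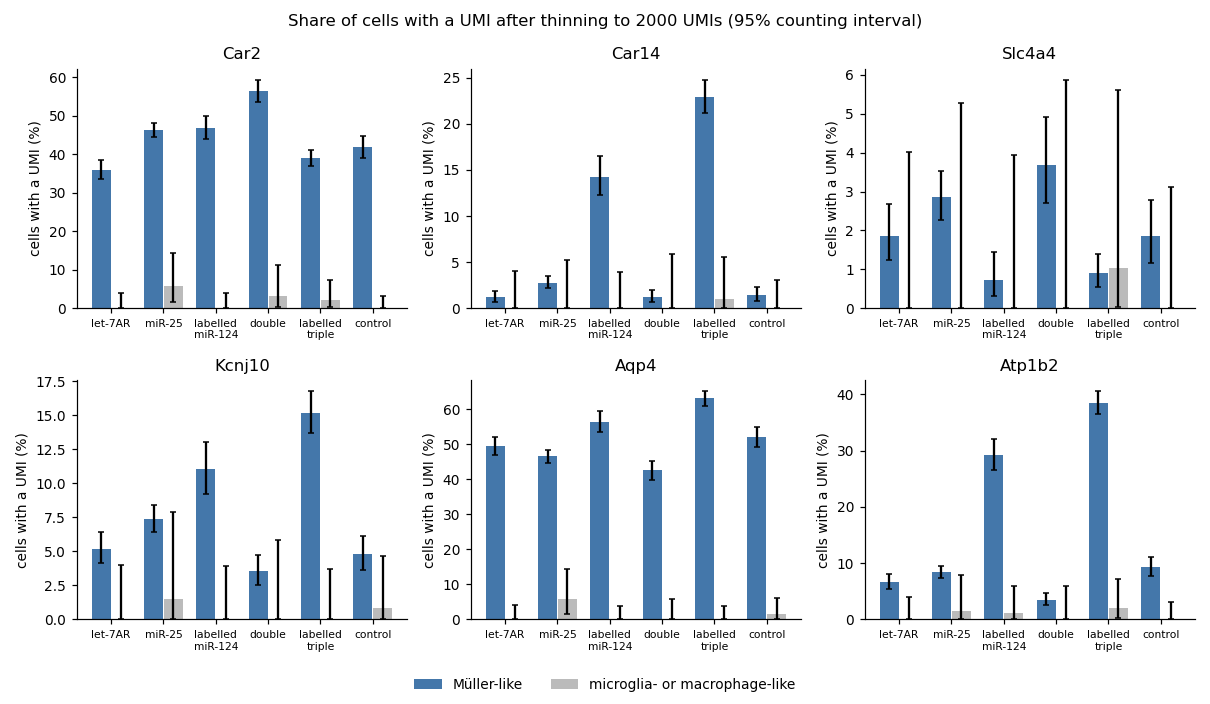
Share of Müller-like cells (blue) and of microglia- or macrophage-like cells (grey) with at least 1 UMI of each member after thinning to 2000 UMIs per cell (%, linear axis from 0), by library with the control at the right; error bars are exact 95% Clopper-Pearson intervals for counting error only. Car14 was found in 14.3% and 23.0% of Müller-like cells in the miR-124-labelled and triple-labelled libraries, against 1.43% in the control.

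For Kcnj10 the share of Müller-like cells was 5.19%, 7.35%, 11.04%, 3.52% and 15.2% in the same order of treatments, against 4.78% in the control. For Aqp4 it was 49.5%, 46.5%, 56.5%, 42.5% and 63.1%, against 52.0% in the control, and for Car2 36.0%, 46.3%, 46.8%, 56.5% and 38.9%, against 41.8% in the control. For Slc4a4 it was 1.86%, 2.85%, 0.736%, 3.69% and 0.909%, against 1.85% in the control. In microglia- or macrophage-like cells the Kcnj10 share was 0% to 1.47% and the Slc4a4 share 0% to 1.03%. With so few such cells, no Slc4a4 share, nor the Kcnj10 share with the double combination, can be placed above or within this background. Summed without thinning, Slc4a4 was 0 to 5.38 CPM there, on 4 UMIs, against 4.95 to 17.9 CPM in Müller-like cells. Kcnj10 was 0 to 8.01 CPM there, on 8 UMIs, against 15.3 to 85.5 CPM in Müller-like cells. Without thinning, the Car14 share was 2.73%, 5.38%, 16.9%, 2.25% and 34.1%, against 2.58% in the control. Of 72 shares without thinning or at 1000 UMIs, 71 lay outside the interval of the value at 2000 UMIs. Cells with at least 3 of the 6 members made up 18.9% in the miR-124-labelled library and 25.5% in the triple-labelled library, against 2.80% to 4.74% in the other 4. In the Rlbp1-led cluster of these 2 libraries such cells were 28.3% and 31.0%.

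Over all kept cells, of which the Müller-like share differed between libraries, the counts of members differed from those in Müller-like cells. In such sums fewer cells of a type and less RNA per cell cannot be told apart. Some members passed the 20 CPM filter only where they were high, and so had to differ. Car14 reached it only in the 2 labelled libraries, at 27.7 and 63.9 CPM. Kcnj10 did so only under miR-25 mimic and in the triple-labelled library, at 23.1 and 38.7 CPM. Slc4a4 did so only in the control, at 20.4 CPM. Car14 is counted as higher below under miR-25 mimic, for both labelled libraries and over the double combination. Under miR-25 mimic, 3 of 6 members were at least 2-fold higher than in the control and none lower, beside 1.73% and 0.871% of 7002 genes, where in Müller-like cells none passed. Car2 was 236 CPM over all kept cells under miR-25 mimic, against 93.7 CPM in the control. In the triple-labelled library 4 members were higher and none lower, beside 3.34% and 0.571% of genes. In the miR-124-labelled library these were 2 and none, beside 1.39% and 0.157%, and with the double combination 1 and none, beside 1.19% and 1.14%. Under let-7 antagomiR no member passed, beside 0.528% and 0.229%. Between the triple-labelled library and the double combination 3 were higher and 1 lower, beside 3.03% and 1.53%. Slc4a4 over all kept cells was at 0.66 to 0.88 of the control in the 5 treated libraries.

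The start regions of Car14 and Kcnj10, which were both highest in the 2 labelled libraries, are shown from 250 bases before to 50 bases after the start, from RefSeq (GRCm38.p6). Capitals mark the motif found, ACAAAG of the Sox factors. The motifs searched on both strands were ACAAAG or ACAATG (Sox), CAGCTG (an E-box) and GTGGGAA (RBPJ), none of which overlaps another, and they are in 28.6%, 16.3% and 6.38% of 32851 such regions.
Car14 (chr3:95904636-95904935, minus strand): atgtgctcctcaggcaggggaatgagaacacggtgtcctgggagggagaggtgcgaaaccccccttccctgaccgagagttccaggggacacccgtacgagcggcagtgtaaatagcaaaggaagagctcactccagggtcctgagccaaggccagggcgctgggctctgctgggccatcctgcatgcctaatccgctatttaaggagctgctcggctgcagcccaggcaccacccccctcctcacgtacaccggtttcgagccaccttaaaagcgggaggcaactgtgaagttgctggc
Kcnj10 (chr1:172340960-172341259, plus strand): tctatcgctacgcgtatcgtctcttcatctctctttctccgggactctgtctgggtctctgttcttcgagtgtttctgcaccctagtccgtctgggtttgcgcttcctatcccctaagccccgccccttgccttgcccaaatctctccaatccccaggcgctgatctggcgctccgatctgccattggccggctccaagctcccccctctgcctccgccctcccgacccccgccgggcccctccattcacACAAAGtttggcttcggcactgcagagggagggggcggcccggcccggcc
The Kcnj10 region held 1 Sox motif. In the Car14 region none of these letters was found, nor in the start regions of Slc4a4, which says nothing of any factor.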

How the data were processed

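Single-cell RNA libraries of transfected mouse Müller glia cultures were analysed, 6 in all and 1 per treatment. Per the labels' protocols the libraries are of the 10x Genomics V2 kind, and what the authors deposited are UMI counts, not normalized. The submitters' processing notes name Cell Ranger 2, Seurat 2 and mm10. The matrix of the double combination stops after 5094879 of the 8637523 entries it states, and only complete barcodes were used.

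Kept cells had 500 or more genes and no more than 10% of their UMIs from mitochondrial genes. Scrublet in scanpy 1.11.5 (Python 3.11.15), run per library, marked 0.111% to 3.06% of cells, which were removed; it marked under 0.2% in 3 libraries (miR-25 mimic, triple-labelled, control) and did not work there. Cells were clustered on 2000 variable genes, 30 principal components and Leiden resolution 0.6, without the members, the other listed genes and mitochondrial genes. Clusters were named from marker lists by at least 3 markers. The Grem1-led cluster rests on 5 of 20 Müller markers and the Rlbp1-led on 15. At Leiden resolution 1.0, a Grem1-led cluster of 2058 cells had 0 raised Müller markers and was left unnamed. Another Grem1-led cluster there, of 1067 cells, had 4 and was named Müller-like.

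UMI counts were summed per library and class, scaled to CPM, and compared as log2 ratios of CPM + 5, which understates changes of low genes. A gene counts as measured if some library has 20 CPM or more. Levels carry exact 95% Poisson intervals, ratios the matching conditional intervals, and shares Clopper-Pearson intervals. The scripts were tested on simulated data. Seed matches were searched in 3′ UTRs, and site differences were taken after trends on UTR length, expression and GC. They cover 7008 genes in Müller-like cells and 6889 over all kept cells. Members and lists were chosen with earlier results of these data known. Named genes are the 6 members, the 2 highest and 2 lowest of the other listed genes in each comparison, the 3 genes most like each member, Rlbp1, Glul and Dkk3, and defining markers where needed. 1 listed gene is not reported here by name. All 6 members have 1 row each in the tables.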

Additional observations from a re-analysis of the deposited data

Results flagged for a closer look

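In 8 cases a member was higher in one class or cluster and lower in another under the same comparison, beyond counting error. None of these differences was tested, because each treatment has 1 library. Values are log2 ratios of CPM + 5.

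Aqp4 under miR-25 mimic over control was 0.59 in astrocyte-like, 1.08 in fibroblast- or mesenchymal-like, 1.58 in microglia- or macrophage-like and 0.72 in pericyte- or smooth muscle-like cells, against -0.23 in Müller-like cells. In the miR-124-labelled library over control, Aqp4 was -0.82 in pericyte- or smooth muscle-like cells, against 0.34 in Müller-like cells. In these 4 other classes, each summed as a whole, Aqp4 was at most 53.5 CPM. Within the fibroblast- or mesenchymal-like class, a cluster with raised Rlbp1, Glul, Crym and Gpr37 gave 501 of the 671 Aqp4 UMIs. It held 112 cells in the control, 103 under miR-25 mimic and 109 in the triple-labelled library, with 212 to 261 CPM there. In the others it held 4 to 21 cells. The largest cluster of that class had 1.69 to 8.85 CPM. Neither free RNA nor doublets were tested as a part of these ratios.

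Car2 in astrocyte-like cells was 1.42 in the triple-labelled library over control, against -0.27 in Müller-like cells. Over the double combination it was 0.75, against -1.10 in Müller-like cells. Car2 in astrocyte-like cells was 8.38 to 31.5 CPM, and it reached 29.4 CPM in microglia- or macrophage-like cells. Free RNA was not tested as a part of these levels, so Car2 in these cells is not read as expression. Car2 in the miR-124-labelled library over control was -0.38 in the Grem1-led cluster, against 0.37 in the Lcn2-led cluster.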

How the results depend on the processing

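No paired analysis was possible because each treatment has 1 library. Under 11 alternatives, all 11 member log2 ratios of at least 1 in size kept their sign, and 21 of all 36 did. A kept sign is not a kept size. Between the triple-labelled library and the double combination, Slc4a4 was -1.20 in Müller-like cells and -0.03 over all kept cells. With the double combination over control, Atp1b2 was -1.06 and -0.12. Of the recomputed member ratios, 305 lay within counting error of the value given and 91 did not. With all kept cells, the members at least 2-fold higher were 3 under miR-25 mimic and 1 with the double combination, with 0 lower there. The other listed genes higher were 1 of 31 under let-7 antagomiR, 4 under miR-25 mimic, 1 in the miR-124-labelled library and 1 with the double combination. The shares over all genes were 0.528%, 1.73%, 1.39% and 1.19% in that order. Where 1 was higher, it was the same gene, at 28.2, 27.6 and 18.8 CPM in that order, against 3.50 CPM in the control. That gene passed the 20 CPM filter only through libraries where it was above the control, and so had to differ. With a pseudocount of 1, 1 member was higher under miR-25 mimic and 3 listed genes were lower with the double combination. With a minimum of 1000 genes and a maximum of 5% mitochondrial UMIs, which left 102 to 724 Müller-like cells per library, listed genes lower were 1 under let-7 antagomiR, 3 in the miR-124-labelled library and 2 with the double combination, 1 was higher under miR-25 mimic, and 0 members were lower with the double combination. At Leiden resolution 1.0 (651 Müller-like cells with the double combination) 0 members were lower with the double combination (Atp1b2 is the member lost in these cases) and 0 between the triple-labelled library and the double combination. At resolution 0.3, and with the mean of per-cell CPM, 2 listed genes were lower with the double combination; the mean of per-cell CPM also left 0 members lower between the triple-labelled library and the double combination (Car2 is lost). With no filter that count was 2, through Slc4a4. With median-of-ratios scaling, 1 listed gene was lower in the triple-labelled library, and the median log2 ratio of all genes between the triple-labelled library and the double combination moved by 0.12. The cause was not tested. Depth limits Car14 and Slc4a4, with as few as 34 and 24 UMIs per library.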
